A study of Papio anubis with 767 samples.

Results

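The 26S proteasome and its immune form were followed through 64 tissues of the baboon at the level of messenger RNA. The genes are the rows of the expression table whose symbol begins with PSM, then a letter from A to G and a number. That rule found 45 of 29202 rows. Of these, 44 encode subunits, activators, assembly chaperones or a regulator of the proteasome. The remaining row, PSMC3IP, shares only the prefix, since it encodes a partner of the meiotic recombinases, and totals that it changes are also given without it. PSMA1, PSMA2, PSMC6 and PSMD9 were not matched and are not analysed here. The labels' tissue names are kept throughout.

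The proteasome is the protease that degrades proteins tagged with ubiquitin. Its 20S core is a barrel of alpha rings around beta rings, and the peptidase sites sit on PSMB5, PSMB6 and PSMB7. Interferons induce PSMB8, PSMB9 and PSMB10, which take the places of PSMB5, PSMB6 and PSMB7 and shift the cut sites toward peptides that suit presentation on MHC class I. A 19S cap of ATPases (PSMC genes) and scaffold, receptor and lid subunits (most PSMD genes) recognises and unfolds the substrate, and the PSME genes encode other activators that can bind the same barrel. Testis and thymus carry special forms, with PSMA8 in male germ cells and PSMB11 in the thymic cortical epithelium.

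Tissues came from 12 male baboons (Papio anubis, aged 5 to 6 years) housed with 12 h each of light and darkness and perfused with cold buffered solution before dissection. Each animal gave the tissues of 1 collection time, every 2 h from ZT0 to ZT22, where ZT0 is lights on, so time and animal cannot be told apart. Tissues are grouped here as 22 brain regions, 35 peripheral tissues and 7 eye and gland tissues, and polyadenylated RNA was sequenced with a stranded kit. Among the peripheral tissues the lymphoid ones are the spleen, axillary and mesenteric lymphonodes and bone marrow.

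There were 767 libraries, with 12 per tissue except 11 for the iris. The reads assigned to genes, recovered from the deposited values, ranged from 32790 for the amygdala library of ZT8 to 31811286, with a median of 8255404. By cell type markers, 80 libraries stood apart, with at least 1 marker list 20-fold above or below the median of their tissue. This flag is relative to that median, so it also took in libraries whose markers suit their label. The testis libraries of ZT2 and ZT14, with spermatid genes, are such cases. In addition, 90 libraries resembled another animal than the labelled one. The latter included all 12 libraries each of the ascending colon, descending colon, duodenum, stomach fundus, testicles and thyroid. In these tissues every library resembled the animal collected 2 h before its label, with ZT0 resembling ZT22. The collection times and the pairing by animal of these tissues are thus uncertain. Results on time were therefore repeated without them. Levels are in FPKM, that is, fragments corrected for gene length and library size as the authors scaled them. A tissue's level is the mean ± SD over its libraries, and a class level is the mean over its tissues, computed for each of the 12 animals.

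The immune catalytic subunits did not share 1 pattern over the tissues. PSMB8 (beta5i) was highest in the spleen, where its 12 libraries ran from 202 through a median of 293 to 623 FPKM, with a mean of 317 ± 110. The mesenteric lymphonodes (233 ± 53.9), ascending colon (224 ± 60.5), axillary lymphonodes (186 ± 47.9), descending colon (180 ± 69.3) and ileum (158 ± 97.4) followed. The low end held the retina at 0.641 ± 0.555, the cerebellum at 2.50 ± 0.938 and the testicles at 3.24 ± 2.17 FPKM. Lymphoid and gut tissues thus stood at the top for PSMB8, and every spleen library lay above every library of the retina, cerebellum and testicles. In the ileum PSMB8 varied widely, from 24.8 to 271 FPKM between animals. Among brain regions the supraoptic nucleus stood highest, at 33.3 ± 11.6 FPKM.

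PSMB9 (beta1i) ran in nearly the same order at lower FPKM. Its median of 139 reads per library was above the 109 of PSMB8, so the lower FPKM depends on the gene lengths used. It was highest in the spleen, from 24.3 through 44.7 to 108 FPKM (mean 50.7 ± 23.4), ahead of the ileum (32.2 ± 17.6), mesenteric lymphonodes (30.8 ± 7.04) and axillary lymphonodes (30.7 ± 6.53). It was lowest in the retina, at 0.656 ± 0.0959, and in the testicles, at 0.792 ± 0.438 FPKM. PSMB10 (beta2i) departed from both. Its highest means were in the lateral hypothalamus, where 12 libraries ran from 94.8 through 184 to 524 FPKM (mean 245 ± 141), the iris, the amygdala (140 ± 58.7) and the supraoptic nucleus (117 ± 63.1). The spleen followed at 93.2 ± 61.9. The iris mean of 212 ± 464 rests on few libraries, because the iris median was 31.1 and the libraries ran from 6.80 to 1531 FPKM. PSMB10 was lowest in the retina (1.76 ± 1.35), testicles (1.77 ± 1.46) and gastrocnemian muscle (4.89 ± 2.92).

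The constitutive partners peaked elsewhere. PSMB5 (beta5, the chymotrypsin-like site) had a mean of 41.6 ± 13.6 FPKM in abdominal muscle, with libraries from 17.1 to 71.9, and 46.4 ± 76.6 in the iris, where the median was 12.6. PSMB6 (beta1, the caspase-like site) had 89.8 ± 28.0 in abdominal muscle and 87.9 ± 147 in the iris. PSMB7 (beta2, the trypsin-like site) had 527 ± 804 in the iris, with a median of 148, and 461 ± 123 in abdominal muscle. All 3 were low in the retina and optic nerve head, where PSMB5 measured 2.33 ± 1.68 and 2.60 ± 1.55, PSMB6 5.93 ± 3.41 and 6.52 ± 3.36, and PSMB7 69.4 ± 19.2 and 69.1 ± 19.4 FPKM. In the ordered list of 64 tissues, neighbours rarely differed by more than the square root of their summed squared SDs. Of 63 neighbouring pairs, 1 did so for PSMB5, at abdominal muscle, and 1 for PSMB8, at the cerebellum and retina, and 0 for PSMB6, PSMB7, PSMB9 and PSMB10.

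**Figure D1:**
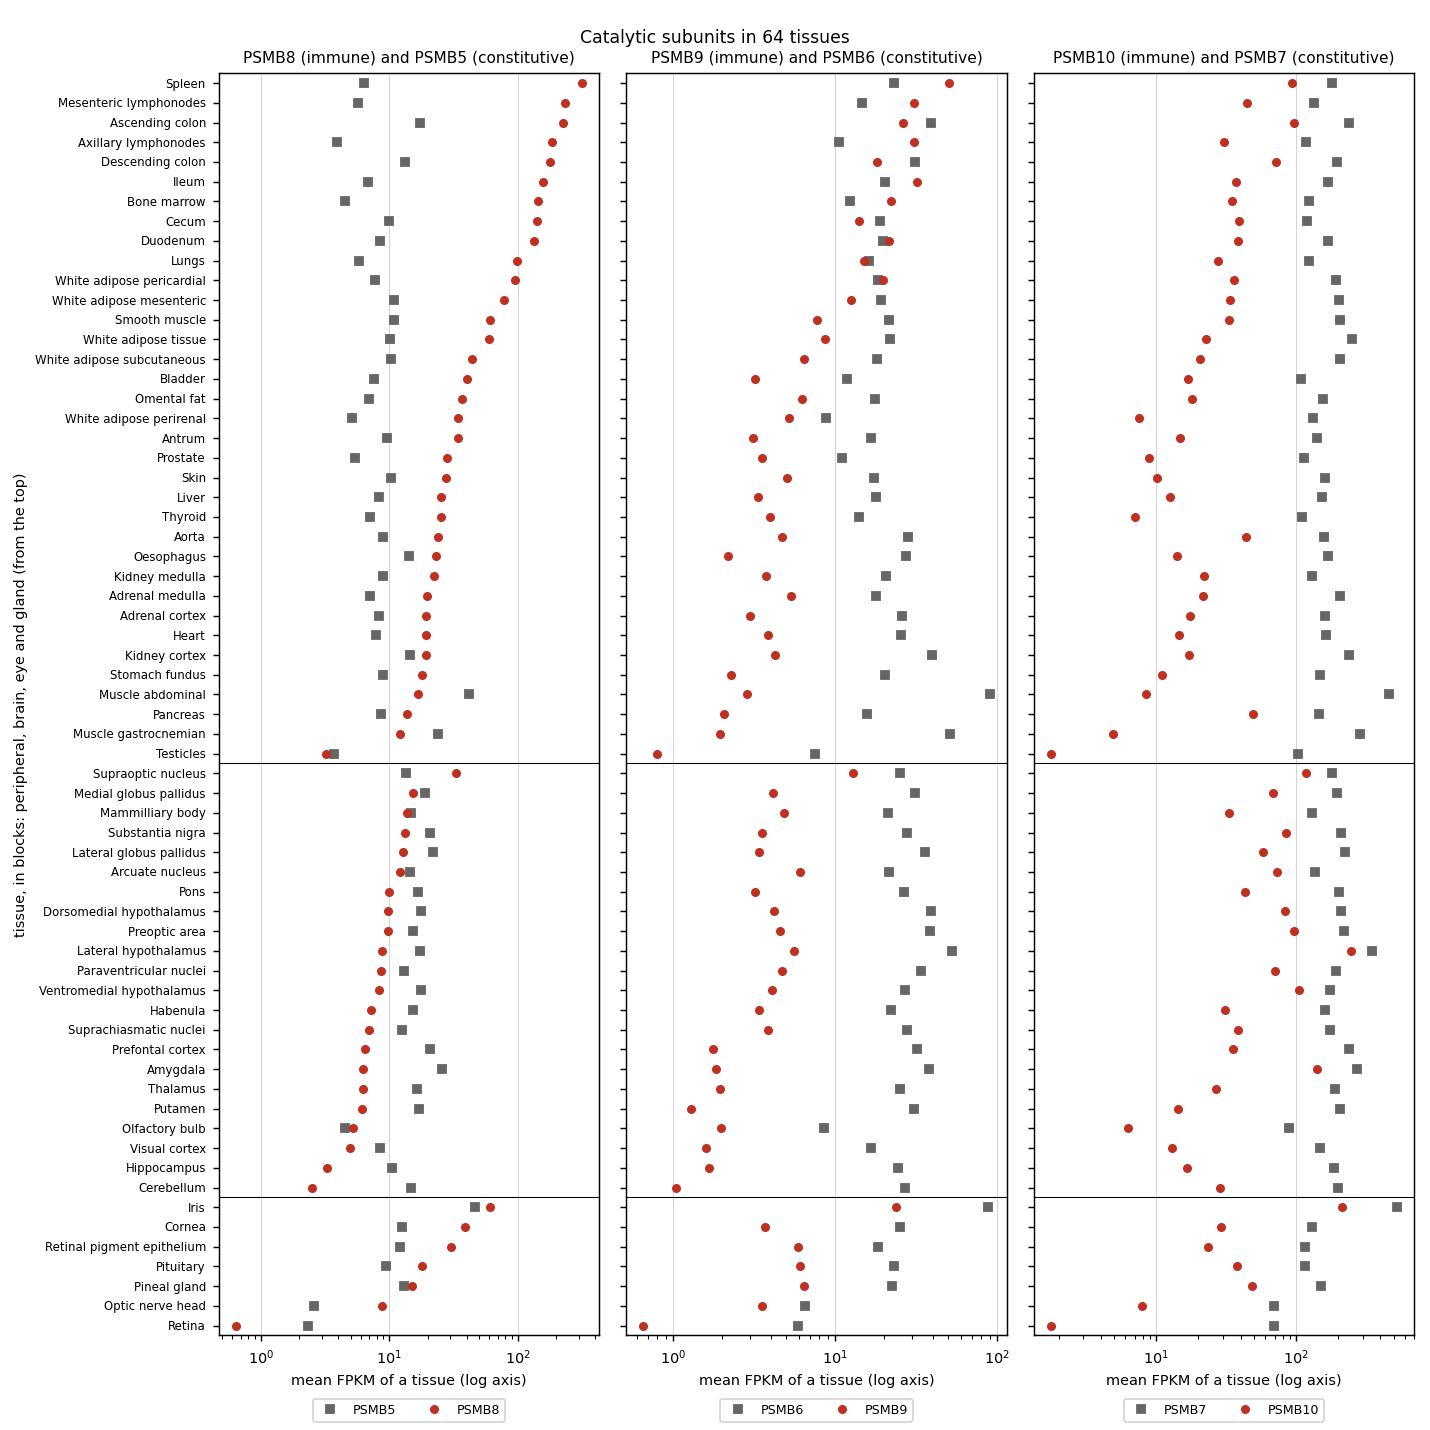
Mean FPKM of each tissue (horizontal, log axis) for the 3 immune catalytic subunits (circles) and the constitutive subunits they replace (squares); tissues are in blocks of peripheral, brain, and eye and gland, each ordered by PSMB8. PSMB8 lies above PSMB5 through most of the peripheral block and below it in most brain regions, while PSMB10 stays below PSMB7 in every tissue.

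In peripheral tissues PSMB8 and PSMB9 were higher and PSMB10 lower than in brain. PSMB8 had class levels of 50.2, 76.4 and 93.4 FPKM (lowest, median and highest of 12 animals) in the periphery, against 5.88, 9.26 and 12.2 in brain. The 2 ranges did not overlap. The difference was 2.32 ± 0.10 on the log2(FPKM + 0.5) scale (mean ± SE of the within-animal difference, higher in 12 of 12 animals, limma, Benjamini-Hochberg adjusted p = 1.01e-13). PSMB9 had 7.51, 11.2 and 14.9 FPKM in the periphery and 2.42, 3.69 and 5.57 in brain, again without overlap (0.98 ± 0.08, 12 of 12 animals, limma adjusted p = 1.23e-09). PSMB10 went the other way in every animal, with 13.03, 24.9 and 49.0 FPKM in the periphery and 42.5, 61.9 and 95.9 in brain (-1.24 ± 0.11, limma adjusted p = 4.85e-09). Its class ranges overlapped, although within each animal the brain was higher.

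The constitutive subunits were all lower in the periphery on the deposited scale. PSMB5 had 6.18, 10.48 and 13.4 FPKM there and 12.4, 16.5 and 18.8 in brain (-0.79 ± 0.05, 0 of 12 animals higher). PSMB6 differed by -0.49 ± 0.07 and PSMB7 by -0.20 ± 0.05. These directions depend on the scaling of whole libraries. The summed FPKM of a library ranged from 284351 to 10728656, and with every library brought to the same sum, an alternative chosen after seeing the data, the median difference of all genes moved from 0.13 to 0.68. PSMB6 then turned to 0.19 and PSMB7 to 0.50 above brain, both still below that median. PSMB8 (3.01), PSMB9 (1.61), PSMB10 (-0.57) and PSMB5 (-0.13, not called) kept their signs.

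Ratios within a library do not depend on this scaling beyond the added 0.5. Their size, and whether they pass 1, does depend on the gene lengths used for FPKM. The ratio of PSMB8 to PSMB5 was 4.82 in the periphery, with animals from 3.27 to 6.35, and 0.556 in brain, with animals from 0.357 to 0.792. The within-animal difference was 3.11 ± 0.10 on the log2 scale, a factor of 8.66. For PSMB9 over PSMB6 the ratios were 0.364 and 0.132 (1.47 ± 0.06, a factor of 2.77). For PSMB10 over PSMB7 they were 0.106 and 0.219, so that this ratio was lower in the periphery in 12 of 12 animals (-1.04 ± 0.10). The ratio of immune to constitutive messenger RNA therefore moved in opposite directions for PSMB10 and for PSMB8 and PSMB9. Each of these differences had p = 0.000488 in an exact 2-sided sign-flip permutation test over animals, the smallest value 12 animals can give, also after adjustment over the 6 ratio tests.

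By tissue, the ratio of PSMB8 to PSMB5 was highest in the spleen (46.1), axillary lymphonodes (42.4), mesenteric lymphonodes (37.7), bone marrow (28.8) and ileum (21.1). It was lowest in the cerebellum (0.192), amygdala (0.218), prefontal cortex (0.319) and hippocampus (0.355). The ratio of PSMB9 to PSMB6 passed 1 in 6 tissues, with 2.79 in axillary lymphonodes, 2.12 in the spleen, 2.06 in mesenteric lymphonodes, 1.73 in bone marrow, 1.68 in the ileum and 1.01 in the duodenum, and was lowest in abdominal muscle, at 0.0364. For PSMB10 over PSMB7 the leading tissues were hypothalamic, with 0.682 in the lateral hypothalamus, 0.620 in the supraoptic nucleus, 0.604 in the ventromedial hypothalamus and 0.545 in the arcuate nucleus, ahead of the spleen at 0.432. The lowest ratios of this pair were 0.0164 in gastrocnemian muscle, 0.0165 in abdominal muscle and 0.0192 in the testicles.

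Over all members, 13 were higher and 22 lower in peripheral than in brain tissues of 42 tested, those whose mean reached 1 FPKM. Among all genes tested 50.0% were higher and 41.4% lower. The members' median difference was -0.19 and that of all genes 0.13. With equal library sums 35 members were higher and 5 lower, with a member median of 0.50 and an all-gene median of 0.68, so the members' median lay below that of all genes under both scalings. The fifth lower member is PSMA8, which passed the filter only under that scaling. The 13 higher members stayed higher. Of the 22 lower members, 4 stayed lower: PSMB10, PSMC5 (-0.50), PSMD4 (-0.17) and PSMG3 (-0.22). PSMA8, PSMB11 and PSMD10 did not reach the filter.

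**Figure D2:**
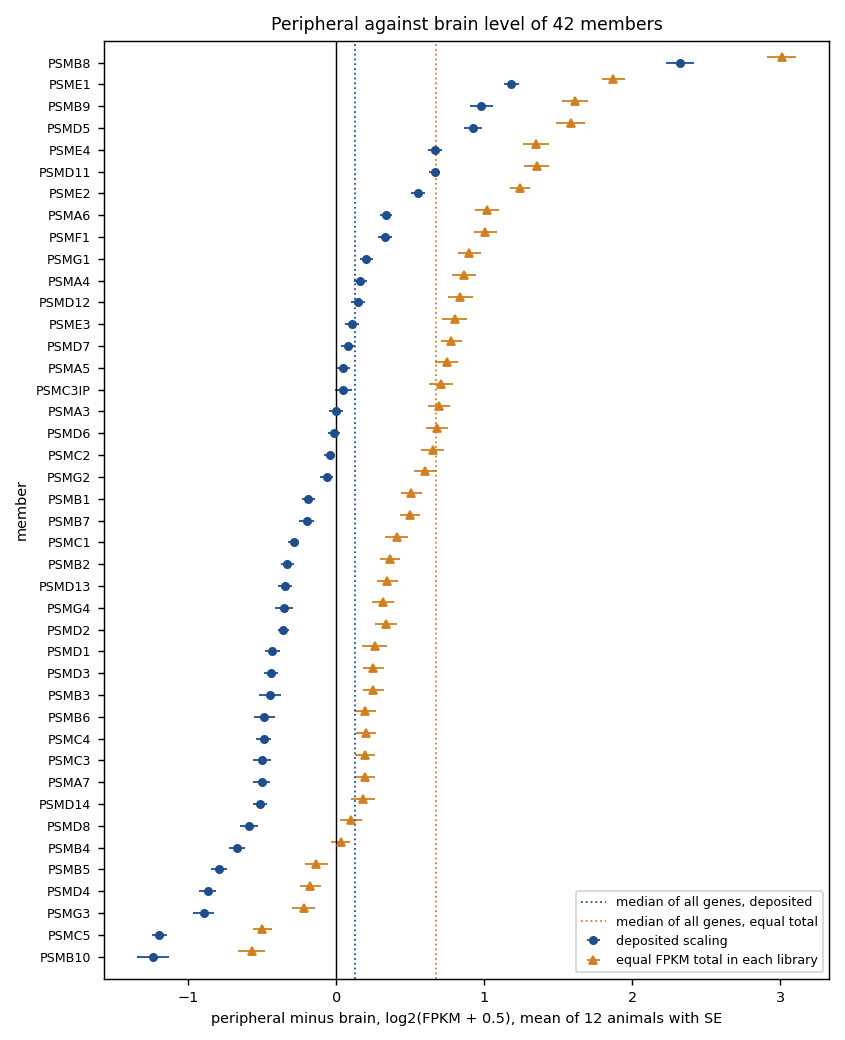
Peripheral minus brain level of the 42 tested members (horizontal, log2 scale, mean of 12 animals with SE), as deposited (circles) and with every library brought to the same FPKM sum (triangles); dotted lines mark the median of all genes under each scaling. PSMB8 is at the top and PSMB10 at the bottom under both scalings, and the triangles lie to the right of the circles for all members.

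All 3 immune subunits were higher in lymphoid than in other peripheral tissues. PSMB8 had 143, 208.5 and 351 FPKM in the lymphoid tissues (lowest, median and highest animal) and 29.1, 60.0 and 68.3 in the other 31 peripheral tissues, with no overlap (2.63 ± 0.09, 12 of 12 animals, limma adjusted p = 6.32e-14). PSMB9 had 22.4, 34.8 and 51.5 against 4.90, 8.20 and 11.6 (2.47 ± 0.09). PSMB10 had 21.1, 48.5 and 91.6 against 12.0, 21.96 and 44.0, ranges that overlapped although all 12 animals were higher in lymphoid tissue (1.44 ± 0.09, limma adjusted p = 9.91e-11). The constitutive subunits were lower, PSMB5 by -0.75 ± 0.06, PSMB6 by -0.41 ± 0.06 and PSMB7 by -0.27 ± 0.05. With equal library sums, where the median of all genes moved from 0.10 to 0.60, PSMB6 turned to 0.11 (not called) and PSMB7 to 0.27.

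The differences were large as ratios of messenger RNA. PSMB8 over PSMB5 was 38.2 in lymphoid and 3.69 in the other peripheral tissues (3.37 ± 0.09, a factor of 10.3), PSMB9 over PSMB6 was 2.14 and 0.290 (2.88 ± 0.08), and PSMB10 over PSMB7 was 0.303 and 0.0927 (1.71 ± 0.08). All 3 were higher in 12 of 12 animals, with the same exact permutation p of 0.000488. Over all members, 12 were higher and 17 lower of 42 (11 and 17 of 41 without PSMC3IP), against 48.1% and 40.1% of all genes. Besides the immune subunits, those that rose most were PSME1, PSME2 and PSME4 of the activators and PSMC3IP (0.83 ± 0.06). With equal library sums, and PSMA8 then tested too, 40 were higher and 1 lower, beside a median of 0.60 for all genes.

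Leukocyte markers moved with these differences. The summed level of 5 leukocyte genes (PTPRC, LCP1, CORO1A, CD53 and LAPTM5) was 17.4 to 91.1 FPKM in brain regions. It was 10.7 to 685 (median 62.8) in the other peripheral tissues and 1185 to 1820 in lymphoid tissues. None of the 5 was at 0 throughout a class. The 685 was in pericardial white fat, most of whose libraries held T cell and thymic genes, as given below. Over the 64 tissue means PSMB8 had r = 0.79 with that sum, PSMB9 0.79, PSME1 0.68, PSME2 0.59, PSMB10 0.31 and PSMB5 -0.19. Within the 22 brain regions the values were 0.55 for PSMB8, 0.55 for PSMB10, 0.42 for PSMB5 and 0.40 for PSMB9. These tissues share animals and library scaling, so the correlations are descriptions. In bulk tissue, more cells of a type and more RNA per cell cannot be told apart. The part of leukocytes in the differences was not tested.

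Macrophage and microglial genes had a different order. Their sum of 6 genes reached 259 FPKM in the supraoptic nucleus, the brain region with the highest PSMB8, and 1138 in the iris, and the lymphoid tissues lay between 80.8 and 478. The iris mean included the library of ZT8, where the median of these 6 genes was 1006 FPKM against an iris median of 28.7. Over tissues, the median of the sum was 49.4 in brain and 33.8 FPKM in the other peripheral tissues, so this sum did not favour the periphery. Its part in the PSMB10 levels was not tested.

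The genes whose tissue pattern was most like PSMB8, by Pearson's r over 64 tissue means among 16217 genes, were IRF1 (0.93), RAC2 (0.92), PSME1 (0.92), IFITM1 (0.92) and RIPK3 (0.91). IRF1 is an interferon-induced transcription factor and RAC2 a GTPase of blood cells. For PSMB9 they were RARRES3 (0.93), TAP1 (0.92), PSMB8 (0.91), ZBP1 (0.91) and RAC2 (0.91), of which TAP1 is a subunit of the transporter that carries peptides into the endoplasmic reticulum. In RefSeq's annotation of the assembly Panubis1.0, TAP1 lies between PSMB8 and PSMB9. PSMB10 had no gene above 0.90 and none of those above: FAU (0.87), BAX (0.87), TAF10 (0.86), ACOT8 (0.86) and SF3B5 (0.86) led its list. FAU encodes a ribosomal protein fusion and BAX a promoter of apoptosis.

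All 4 proteasome activators were higher in the periphery. PSME1 and PSME2 form the interferon-induced PA28 cap. PSME1 had 43.7, 58.8 and 70.4 FPKM in the periphery and 19.1, 23.1 and 29.1 in brain, without overlap (1.18 ± 0.05, 12 of 12 animals, limma adjusted p = 2.54e-13), and it rose by a further 1.16 ± 0.06 in lymphoid over other peripheral tissues. PSME2 had 40.4, 50.4 and 55.8 against 24.8, 29.6 and 35.8 FPKM, also without overlap (0.55 ± 0.05), and it was 1.01 ± 0.07 higher in lymphoid tissues. By tissue PSME1 led in the spleen (136 ± 44.6), ascending colon (122 ± 30.96) and iris, and was lowest in the retina (9.09 ± 2.03) and putamen (9.29 ± 2.52). PSME2 led in the ascending colon (149 ± 36.1) and descending colon (117 ± 52.0) and was lowest in the cerebellum (11.5 ± 2.50) and hippocampus (12.2 ± 2.02). The 2 genes are neighbours in RefSeq's annotation, with EMC9 between them, and r between PSMB8 and PSME1 over tissues was 0.92.

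The remaining activators followed muscle and testis. PSME3, the nuclear PA28 gamma, was highest in the testicles (114 ± 78.9), abdominal muscle (93.3 ± 14.4) and gastrocnemian muscle (92.1), and lowest in the pituitary (26.5 ± 6.15) and supraoptic nucleus (30.4 ± 10.3). PSME4, the large activator PA200, was highest in gastrocnemian muscle (110 ± 46.5) and the testicles (65.4 ± 44.5), and lowest in the iris (7.89 ± 5.61) and cerebellum (8.05 ± 1.94). PSME4 had 21.1, 23.6 and 31.7 FPKM in the periphery against 12.2, 13.7 and 15.0 in brain (0.67 ± 0.05), and it was 0.56 ± 0.04 higher in lymphoid than in other peripheral tissues. PSME3 differed by 0.11 ± 0.05 between periphery and brain (limma adjusted p = 0.034). That call was lost without pairing by animal (p = 0.12) and without the libraries that resembled another animal (p = 0.35).

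Most alpha ring genes changed little between the classes on the deposited scale. PSMA6 (0.33 ± 0.04) and PSMA4 (0.16 ± 0.04) were higher in the periphery, PSMA7 was lower (-0.50 ± 0.06, from a brain median of 167 to a peripheral median of 120 FPKM), and PSMA3 (0.00) and PSMA5 (0.05) were not called. With equal library sums PSMA3 (0.69), PSMA5 (0.75), PSMA4 (0.86) and PSMA6 (1.02) were all called higher, beside a median of 0.68 for all genes. PSMA7 turned to 0.19, below that median. Several peaked in the ileum or abdominal muscle. PSMA3 was highest in the lateral hypothalamus (146 ± 48.8) and ileum (145 ± 66.4) and lowest in the iris (24.4 ± 16.9) and retinal pigment epithelium (35.6 ± 6.11). PSMA4 led in the ileum (332 ± 134) and abdominal muscle (277 ± 54.7), with the iris (57.7 ± 43.1) and cornea (77.3 ± 11.2) lowest. PSMA5 led in the ileum (272 ± 66.3) and duodenum (233 ± 61.5) and was lowest in the pancreas (46.4 ± 7.98). Muscle and gut also led for PSMA6, at 45.9 ± 12.3 in abdominal muscle and 38.0 ± 11.0 in the ileum, against 10.9 ± 2.23 in the retinal pigment epithelium and 11.6 ± 1.63 in the aorta. PSMA7 ranged from 361 ± 148 in the lateral hypothalamus and 284 ± 106 in abdominal muscle down to 41.7 ± 12.1 in the retina and 27.9 ± 4.70 in the testicles. PSMA5 in the retinal pigment epithelium was 73.3 ± 11.0.

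The structural beta subunits, which carry no peptidase site, were all lower in the periphery on the deposited scale. PSMB4 was the clearest, with 144, 181 and 237 FPKM in the periphery and 239, 292 and 329 in brain, ranges that did not overlap (-0.67 ± 0.05). PSMB3 differed by -0.45 ± 0.07, PSMB2 by -0.33 ± 0.05 and PSMB1 by -0.19 ± 0.04. All 4 lay above 0 with equal library sums, at 0.03 (not called), 0.25, 0.36 and 0.51 in the same order, and below the median of all genes. PSMB1 led in kidney cortex (380 ± 334, median 283) and the lateral hypothalamus (195 ± 84.2) and was lowest in the retina (41.7 ± 2.78) and gastrocnemian muscle (55.2 ± 5.23). The iris and lateral hypothalamus held the highest means of the other 3. For PSMB2 these were 143 ± 185 (iris median 55.6) and 105 ± 41.2, against 21.2 ± 2.95 in the prostate and 23.9 ± 3.92 in the thyroid. For PSMB3 they were 1191 ± 2476 (iris median 162) and 565 ± 450, against 43.4 ± 21.6 in the retina and 49.9 ± 23.8 in the testicles. For PSMB4 they were 1074 ± 1872 (iris median 272) and 572 ± 237, against 73.6 ± 17.97 in the testicles and 80.1 ± 21.1 in the retina. The large SDs of the iris come from its libraries of ZT6 and ZT8, which for PSMB3 read 3516 and 8009 FPKM.

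The base of the 19S cap, the ring of ATPases with its scaffold and ubiquitin receptor, was lower in the periphery for 7 of 8 tested genes on the deposited scale. PSMC5 differed most, with 91.3, 123 and 167 FPKM in the periphery and 233, 285 and 401 in brain (-1.20 ± 0.05, 0 of 12 animals higher, limma adjusted p = 2.47e-13). It stayed lower with equal library sums. PSMC3 (-0.50), PSMC4 (-0.49) and PSMC1 (-0.29) were lower and turned positive under that scaling. PSMC2 (-0.04) was not called as deposited and was higher, at 0.65, with equal sums. PSMD4, a ubiquitin receptor, had 35.1, 53.3 and 70.9 FPKM against 80.5, 94.7 and 112 (-0.87 ± 0.06), without overlap. The scaffolds PSMD1 (-0.43) and PSMD2 (-0.36) differed less and turned positive with equal sums.

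Skeletal muscle led for most genes of the base. PSMC1 (262 ± 35.1 and 228 ± 21.8), PSMC2 (252 ± 40.5 and 200 ± 24.4) and PSMC3 (210 ± 66.7 and 139 ± 50.5) were highest in abdominal and gastrocnemian muscle. Their lowest tissues were the iris (44.7 ± 19.2) and retinal pigment epithelium (62.7 ± 7.88) for PSMC1, the bladder (60.7 ± 10.2) and prostate (61.1 ± 13.5) for PSMC2, and the optic nerve head (16.4 ± 7.75) and retina (18.002 ± 7.53) for PSMC3. PSMC4 led in the iris (154 ± 191, median 68.2) and abdominal muscle (91.2 ± 20.7), and its lowest levels were in perirenal white fat (25.2 ± 7.00) and the optic nerve head (27.4 ± 11.7). PSMC5 departed from this order and led in the lateral hypothalamus (696 ± 432) and pons (334 ± 50.0), with the prostate (70.3 ± 15.0) and bladder (73.1 ± 7.05) lowest. PSMD1 ranged from 59.7 ± 6.77 in gastrocnemian muscle and 54.7 ± 27.5 in the lateral hypothalamus to 12.5 ± 6.46 in the iris and 8.93 ± 2.33 in the pancreas. PSMD2 ranged from 145 ± 32.6 and 132 ± 19.7 in gastrocnemian and abdominal muscle to 34.1 ± 11.2 in the retina and 25.7 ± 10.2 in the optic nerve head. Abdominal muscle led again for PSMD4 (163 ± 46.5), before the lateral hypothalamus (151 ± 51.5), with the retina (20.4 ± 9.01) and perirenal white fat (27.1 ± 8.84) lowest.

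The 8 lid genes split, with 2 higher and 4 lower in the periphery. PSMD11, a scaffold of the lid, rose from 25.1, 26.9 and 29.8 FPKM in brain to 41.2, 44.9 and 47.8 in the periphery, without overlap (0.66 ± 0.04), and PSMD12 was 0.15 ± 0.05 higher. PSMD8 (-0.59), PSMD14, the deubiquitinase of the lid (-0.51), PSMD3 (-0.44) and PSMD13 (-0.35) were lower and turned positive with equal library sums, where PSMD8 stood at 0.10 (not called). PSMD6 (-0.01) and PSMD7 (0.08) were not called as deposited and were higher, at 0.68 and 0.78, with equal library sums.

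Muscle was the leading tissue for 5 of the 8 lid genes. PSMD6 (170 ± 32.8 and 144 ± 37.3) and PSMD7 (223 ± 37.3 and 189 ± 21.1) were highest in abdominal and gastrocnemian muscle and lowest in the iris (40.4 ± 21.8 and 46.1 ± 15.3). The next lowest were the prostate for PSMD6 (47.9 ± 11.9) and the thyroid for PSMD7 (50.8 ± 7.44). PSMD11 led in gastrocnemian (115 ± 14.2) and abdominal muscle (107 ± 11.0), with the lateral hypothalamus (17.6 ± 4.90) and pineal gland (22.3 ± 4.19) lowest. For PSMD12 the testicles (74.7 ± 19.8) stood beside gastrocnemian muscle (71.2 ± 18.7), over the aorta (21.9 ± 2.11) and iris (13.9 ± 8.97). PSMD13 and PSMD14 led in abdominal muscle (92.3 ± 33.7 and 164 ± 54.1), followed by the lateral hypothalamus for PSMD13 (82.2 ± 48.1) and the ileum for PSMD14 (138 ± 62.4). Their lowest tissues were the retina (19.8 ± 1.93) and perirenal white fat (21.3 ± 3.08) for PSMD13, and the iris (23.1 ± 15.2) and aorta (37.3 ± 6.78) for PSMD14. The iris gave the highest mean of PSMD3 (221 ± 282, median 86.7) and PSMD8 (228 ± 415, median 44.1), followed by abdominal muscle for PSMD3 (147 ± 29.9) and the amygdala for PSMD8 (117 ± 34.7). Both were lowest in the optic nerve head (22.9 ± 11.8 and 13.4 ± 8.16) and retina (28.1 ± 13.2 and 17.7 ± 10.3).

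The assembly chaperones, which guide the rings and the base together, moved both ways. PSMD5, a chaperone of the base, had 7.40, 10.3 and 13.9 FPKM in the periphery and 4.42, 4.92 and 6.35 in brain (0.92 ± 0.06, 12 of 12 animals). PSMG3, a chaperone of the alpha and beta rings, had 8.38, 15.7 and 24.7 against 21.5, 28.9 and 41.96 (-0.90 ± 0.07, 0 of 12). PSMG1 was 0.20 ± 0.04 higher, and PSMG4 differed by -0.35 ± 0.06, turning to 0.31 with equal library sums. PSMG2 was not called as deposited and was higher, at 0.60, with equal sums. PSMD10, listed as a chaperone of the base, was at 0 in 726 of 767 libraries and its highest tissue mean was 0.107 FPKM. PSMF1, a regulator that binds the barrel, was 0.33 ± 0.05 higher in the periphery.

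Each chaperone had its own leading tissues. PSMD5 led in the oesophagus (21.1 ± 3.45) and bladder (15.9 ± 3.69) and was lowest in the lateral hypothalamus (1.69 ± 1.11) and amygdala (3.76 ± 1.55). PSMG1 led in kidney cortex (176 ± 47.7) and ileum (157 ± 67.8), over 39.0 ± 3.90 in the retinal pigment epithelium and 40.0 ± 8.17 in the medial globus pallidus. PSMG2 led in the stomach fundus (10.9 ± 2.98) and duodenum (10.8 ± 2.33), over 2.44 ± 0.446 in the pancreas and 3.25 ± 0.715 in gastrocnemian muscle. Brain regions and the iris led for PSMG3 and PSMG4. PSMG3 had 76.8 ± 140 in the iris (median 19.3) and 66.0 ± 23.5 in the amygdala, against 3.67 ± 2.87 in the optic nerve head and 4.05 ± 3.17 in the retina. PSMG4 had 63.7 ± 45.8 in the lateral hypothalamus and 35.7 ± 62.0 in the iris (median 9.86), against 4.31 ± 1.34 in the testicles and 4.63 ± 1.17 in the prostate. PSMF1 led in the iris (153 ± 221, median 54.8) and gastrocnemian muscle (61.0 ± 21.8), over 9.34 ± 4.46 in the optic nerve head and 10.5 ± 5.47 in the lateral hypothalamus. PSMC3IP, which is no subunit, led in bone marrow (29.3 ± 9.02) and retina (21.4 ± 3.30), over the liver (3.03 ± 2.24) and gastrocnemian muscle (3.12 ± 1.18).

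Summed over the 28 constitutive genes of the core, base and lid, tissue levels ran from 1345 FPKM in the prostate, 1413 in the testicles and 1420 in the retina to 4485 in abdominal muscle, 4641 in the lateral hypothalamus and 4747 in the iris. This order does not survive rescaling. With equal library sums abdominal muscle moved from rank 3 to rank 20 of 64, the iris from 1 to 46 and the spleen from 27 to 1, and the log sums of the 2 scalings had r = 0.01 over tissues. The order of summed proteasome expression between tissues therefore depends on the scaling. Among the 28 genes the median pairwise r of tissue means was 0.44 over 378 pairs (lowest -0.48, highest 0.92), whereas the median r of PSMB8 with them was -0.07 and that of PSMB10 0.42.

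Of the wider ubiquitin and proteasome list (chaperones, shuttle receptors, ubiquitin genes and deubiquitinases), 11 of 24 tested genes were higher and 11 lower in the periphery, beside 50.0% and 41.4% of all genes. Those with the smallest p were UBQLN4, a shuttle for ubiquitinated proteins (-1.09), DDI2, the protease that activates NFE2L1 (1.64), and PAAF1, an assembly factor of the cap (-1.18). Of the antigen presentation list 16 of 17 were higher in the periphery, beside 50.0% of all genes, led by IRF1 (2.52), the peptide trimmer ERAP2 (2.46) and JAK2, a kinase of cytokine receptors (1.24). CANX, a chaperone of the endoplasmic reticulum, was the lower gene (-0.52). Between lymphoid and other peripheral tissues 14 of 17 antigen presentation genes were higher and 1 lower, beside 48.1% and 40.1% of all genes, led by ERAP2 (2.47), the MHC class I activator NLRC5 (2.72) and the class II activator CIITA (3.07). Of the ubiquitin and proteasome list, 6 of 24 were higher and 9 lower there. NFE2L1, the transcription factor that raises proteasome genes when proteolysis fails, was among them (-1.20), with ZFAND5 (-0.81) and KIAA0368 (-0.53).

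PSMA8, the germ cell alpha subunit that takes the place of PSMA7, was found mainly in the testicles. It had libraries from 4.80 through 17.5 to 74.2 FPKM, and no other tissue had a mean above 1.08. On the log2(FPKM + 0.5) scale PSMA8 lay 4.98 ± 0.34 above the mean of the other 34 peripheral tissues, which is given as a description, since it passed the filter only through the testicles. PSMA7 was 2.02 lower there (-2.02 ± 0.11), with testis libraries from 16.1 to 33.9 FPKM against a median of 123 over the other peripheral tissues. PSMA8 made up 12.5% to 82.1% of the sum of PSMA7 and PSMA8 (median 37.8%). The immune subunits were lower, PSMB8 by -3.80 ± 0.23, PSMB9 by -2.54 ± 0.14 and PSMB10 by -3.22 ± 0.17, and so were PSME1 (-1.75 ± 0.20) and PSME2 (-1.48 ± 0.12).

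Besides PSMA8, the rows higher in the testicles were PSME4 (1.52 ± 0.18), PSMD12 (1.02 ± 0.08), PSME3 (0.94 ± 0.18), PSMD5 (0.55 ± 0.12), PSMD1 (0.29 ± 0.07), and PSMC3IP (0.52 ± 0.13), which is no subunit. In all, 7 were higher and 28 lower of 43 (6 and 28 of 42 without PSMC3IP), against 40.8% and 41.1% of all genes, and the 7 include PSMA8, which the filter let in through the testicles. With equal library sums the median of all genes moved from 0.01 to 0.78, and 20 members were higher and 12 lower, PSMB7 turning from -0.68 to 0.15 (not called). The 6 higher rows besides PSMA8 stayed higher. Of the ubiquitin and proteasome list 10 were higher and 9 lower of 23, with UBQLN1 (0.90) and PAAF1 (0.84) among those with the smallest p. Antigen presentation genes went down, 9 of 17 against 3 higher, led by CIITA (-1.94), TAPBPL (-2.92) and NLRC5 (-2.42). The pairing by animal is by label only, since all 12 testis libraries resembled another animal.

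Germ cell markers moved with the testis values. The libraries labelled ZT0, ZT4 and ZT2 had the highest sums of 4 spermatocyte genes (SYCP1, SYCP3, DMC1 and TEX101), at 755, 590 and 568 FPKM, and PSMA8 at 63.1, 37.6 and 35.6. The libraries labelled ZT6, ZT10, ZT16, ZT8 and ZT20 had sums of 16.2 to 39.1 and PSMA8 of 4.80 to 9.53. The library labelled ZT14 had the highest PSMA8, 74.2, at a spermatocyte sum of 244. It was also 1 of 2 libraries rich in spermatid genes (PRM2, TNP1 and TNP2), at 5638 FPKM, with ZT2 at 7816 and the next highest at 125. These 2 libraries held the highest PSME4, 197 and 102 against 41.5 to 58.3 in the rest, and the highest PSME3, 342 and 188 against 65.2 to 102. Sums of Sertoli and Leydig cell genes varied less, from 113 to 191 FPKM. The part of germ cell content in these values was not tested. The genes most like PSMA8 over 64 tissues were WDR87 (r = 0.91), C12orf50 (0.89), OOSP2 (0.88), C18orf63 (0.88) and SUN3 (0.88).

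PSMB11, the thymic beta5t subunit, was found mainly in libraries labelled pericardial white fat. It was at 0 in 548 of 767 libraries and above 5 FPKM in 11, of which 9 were labelled pericardial white fat. Those 9 libraries ran from 16.03 to 48.7 FPKM on 110 to 612 reads, and the other 3 of that tissue, ZT2, ZT16 and ZT22, from 0 to 0.985 on 0 to 7 reads. The sum of 5 T cell genes was 216 to 1033 FPKM in the 9 and 22.1 to 38.0 in the 3, and that of 3 adipocyte genes was 10.7 to 2277 (median 32.0) and 1762 to 3771. Adipocyte genes were thus low in most of the 9 libraries, against their label.

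Genes of the thymus, listed after PSMB11 was seen there, followed it. DNTT, the enzyme that adds bases at antigen receptor joints, had 118 to 622 FPKM in the 9 libraries and at most 19.1 in the 3. CD1B had 29.0 to 190 against at most 5.34, PTCRA 40.0 to 140 against at most 1.95, the thymic protease PRSS16 109 to 443 against at most 13.1, and the chemokine CCL25 25.7 to 79.5 against at most 2.41. FOXN1, the regulator of thymic epithelium, had 0.137 to 4.05 against at most 0.0758. PSMB8 was 82.1 to 157 in the 9 and 21.4 to 50.6 in the 3, PSMB9 15.9 to 39.9 and 3.89 to 8.42, and PSMB5 3.12 to 20.9 and 5.58 to 17.4 FPKM, with overlap for PSMB5 alone of these 3. PSMB10 also overlapped, with 14.4 to 73.2 and 6.77 to 53.6, and so did the recombinase gene RAG1, with 2.47 to 754 and 0.874 to 12.6 FPKM. The thyroid library labelled ZT6 (6.84 FPKM) and the iris library of ZT8 (6.23, on 6 reads) were the other 2 above 5. In the thyroid library T cell genes summed to 193 FPKM, over a median of 14.6 in its other 11, with CD1B at 26.9 and DNTT at 81.2, whereas both were at 0 in the iris library.

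**Figure D3:**
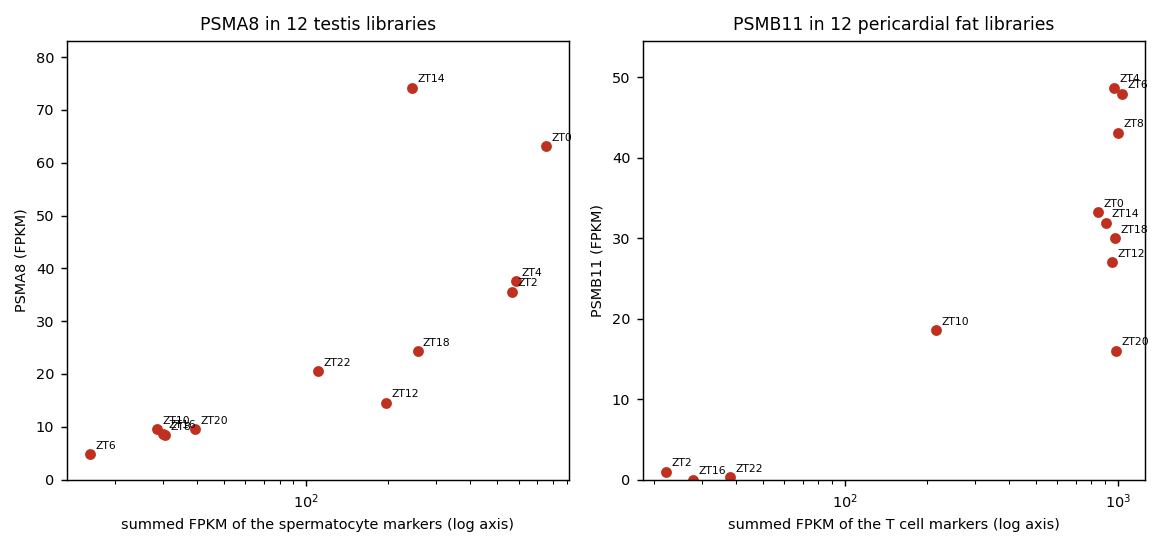
Left, PSMA8 in the 12 testis libraries against the summed FPKM of 4 spermatocyte genes (log axis); right, PSMB11 in the 12 pericardial white fat libraries against the summed FPKM of 5 T cell genes (log axis), each point a library with its labelled time. PSMA8 is lowest where spermatocyte genes are lowest, with the library labelled ZT14 above the rest, and the 3 fat libraries with the fewest T cell transcripts have PSMB11 below 1 FPKM.

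Over the 24 h, each class mean was fitted with a cosine of period 24 h across the 12 animals. In the periphery 31 of 42 members passed the test (30 of 41 without PSMC3IP) and in brain 16 of 42, against 61.3% and 31.7% of all genes. The brain count depended on single animals, since it was 7 without the animal of ZT6, 8 without that of ZT16 or ZT18, 9 without that of ZT4, and at most 14 without any of the 12. The largest amplitude among members was that of PSMB10, 0.79 ± 0.13 in the periphery on the log2 scale with a peak at ZT5.94 (limma adjusted p = 0.00073). Its class level ran from 13.03 FPKM at ZT22 to 49.0 at ZT6. In brain it had 0.42 ± 0.10 with a peak at ZT4.73. PSMG3 followed, with 0.67 ± 0.10 at ZT6.39 in the periphery and 0.42 ± 0.07 at ZT5.87 in brain. The highest and lowest peripheral levels of PSMG3 were also at ZT6 and ZT22.

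The called members fell into opposite groups. In the periphery 17 peaked between ZT4 and ZT8 and 13 between ZT16 and ZT20, with 1 elsewhere, PSMB8. Among all called genes 54.5% peaked in the first span and 37.4% in the other, against 54.8% and 41.9% of the called members, so the members divided as genes in general did. In brain 10 and 5 fell in these spans, with 1 elsewhere. The early group held all 3 constitutive catalytic subunits, PSMB5 (0.41 ± 0.07, ZT6.71), PSMB6 (0.36 ± 0.08) and PSMB7 (0.19 ± 0.04), with PSMB9, PSMB10, the structural PSMB3 (0.38 ± 0.07) and PSMB4, the ATPases PSMC3 (0.38 ± 0.07), PSMC4 and PSMC5, PSMD4, PSMD3 and PSMD8 (0.47 ± 0.07). The late group held 4 of 5 alpha genes, such as PSMA4 (0.27 ± 0.04, ZT18), the lid genes PSMD12 (0.33 ± 0.05, ZT18.8), PSMD14 and PSMD6, the ATPases PSMC1 and PSMC2, the scaffold PSMD1 and the activators PSME3 (0.24 ± 0.04) and PSME4 (0.21 ± 0.05). PSMA7 was the alpha gene of the early group. Within the alpha ring, PSMA7 thus peaked at ZT7.18 and PSMA4 at ZT18. Of the 14 members called in both classes, 13 peaked within 2 h of each other, and PSMB6 had the widest gap, 2.22 h.

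**Figure D4:**
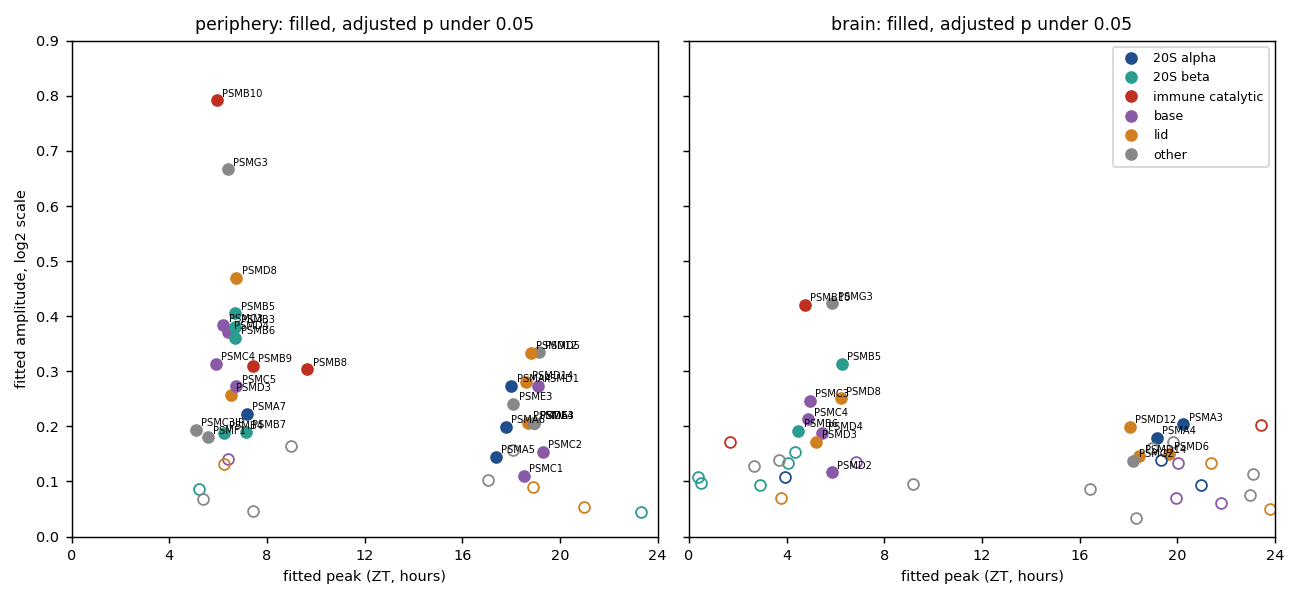
Fitted peak time (horizontal, ZT in hours) and amplitude (vertical, log2 scale) of the 42 tested members in the periphery and in brain; filled points passed an adjusted p of 0.05 and colours mark the role. Filled points gather near ZT6 and near ZT18 to ZT20, and PSMB10 and PSMG3 have the largest amplitudes in both panels.

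The 2 groups lay on opposite sides of an axis along which whole libraries differed. That axis held 30.8% of the variance within tissues, and its mean score per animal ran from 0.84 at ZT6 to -0.999 at ZT22. Over the 12 animals the 17 early members had r of 0.80 to 0.99 with it (median 0.97) and the 13 late members -0.98 to -0.81 (median -0.91). With the axis as a covariate, 0 members were called in the periphery and 0 in brain by limma, where 4 and 12 had an unadjusted p under 0.05. With a linear trend over collection time, 3 were called in the periphery (PSMD1, PSMD12 and PSMD8) and 0 in brain, where 5 had an unadjusted p under 0.05. The share of all genes called in these fits is not given here. In the periphery the members' median amplitude was 0.21 as first fitted, 0.10 with the axis and 0.15 with the trend. That of all genes was 0.22, 0.095 and 0.17. In brain these were 0.14, 0.12 and 0.14 for members and 0.16, 0.16 and 0.17 for all genes. Because each time was 1 animal, the 24 h profiles, the axis and differences between animals cannot be told apart.

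PSMB8 and PSMB9 were the 2 members of 42 whose 24 h profile differed between brain and periphery, against 5.67% of all genes. In the periphery PSMB8 had an amplitude of 0.30 ± 0.09 with a peak at ZT9.65 (limma adjusted p = 0.026), and in brain 0.20 ± 0.08 with a peak at ZT23.4 (limma adjusted p = 0.13). On the log2 class means that were fitted, peripheral PSMB8 was lowest at ZT22 (4.72) and highest at ZT8 (5.70), and brain PSMB8 was lowest at ZT12 (2.55) and highest at ZT20 (3.32). The difference of the profiles had an amplitude of 0.49 ± 0.07 (limma adjusted p = 0.0070). For PSMB9 the peaks were at ZT7.41 in the periphery and ZT1.66 in brain, the latter not called, and the difference was 0.34 ± 0.07 (limma adjusted p = 0.034). PSME1 (0.22, p = 0.056) and PSMB10 (0.41, p = 0.090) did not pass that test in limma.

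The PSMB8 difference kept its call with the axis as a covariate (0.44, limma adjusted p = 0.024), with a linear trend (p = 0.014) and without the library of the amygdala at ZT8. It was lost without the libraries that resembled another animal (0.44, p = 0.072), without pairing by animal (p = 0.24) and with an F test that did not pool variance over genes (p = 0.075). The PSMB9 difference was lost under each of these and under several more. The peripheral profile of PSMB8 itself was lost without the libraries that resembled another animal (0.25, p = 0.13), and the ascending colon, descending colon and duodenum are among the tissues with the most PSMB8.

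**Figure D5:**
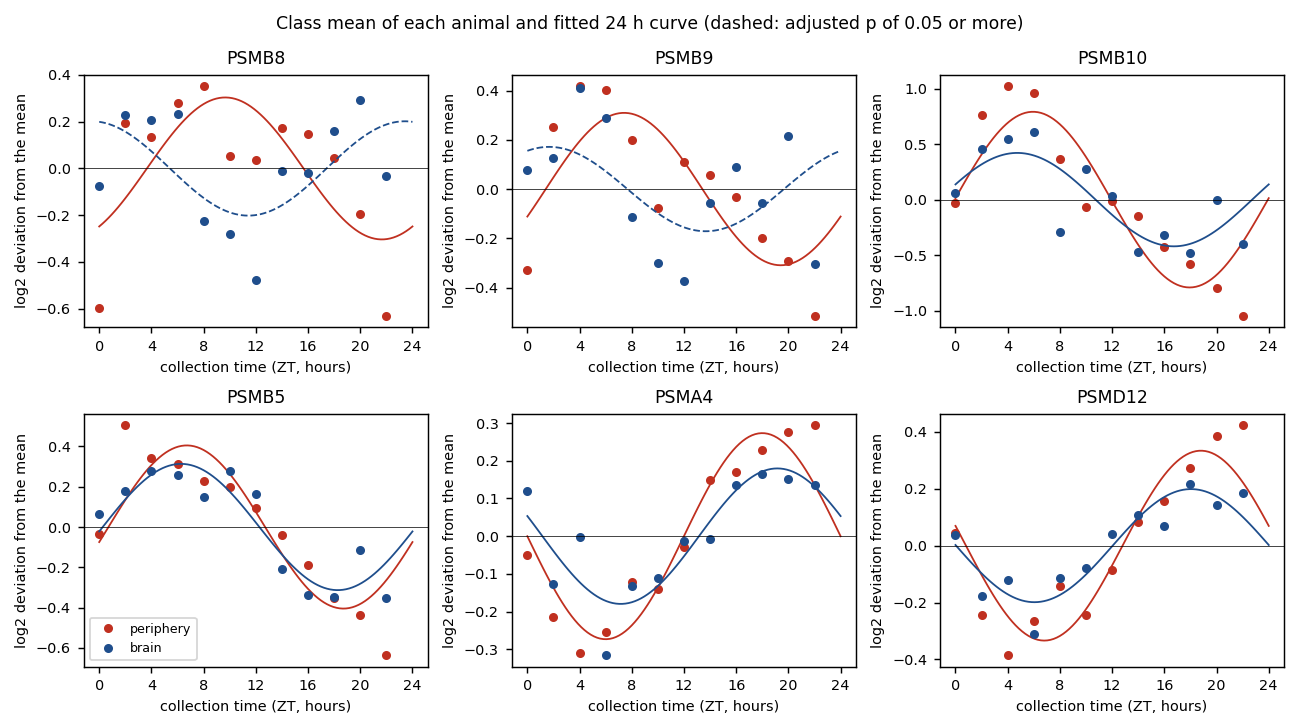
Class mean of each animal as a deviation from the mean over animals (points, log2 scale) and the fitted 24 h curve (lines, dashed where the adjusted p was 0.05 or more) for 6 members in the periphery and in brain. The curves of PSMB5, PSMB10, PSMA4 and PSMD12 nearly coincide in the 2 classes apart from their size, and those of PSMB8 run opposite to each other.

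In single tissues, 201 of 2688 pairs of member and tissue were called (7.48%), against 6.56% of all pairs of gene and tissue. PSMG3 was called in 15 tissues, PSMC3 in 14, PSMB10 in 13, PSMB3 in 11 and PSMC4 in 10. Of 42 tested, the heart and thyroid each had 23 called members, the ileum 21, the stomach fundus 19 and the paraventricular nuclei 18. Many other genes were called in these tissues too. The shares of all genes were 42.4% in the heart, 44.2% in the thyroid and 27.5% in the ileum. They were 34.4% in the stomach fundus and 20.9% in the paraventricular nuclei. The thyroid and stomach fundus are tissues whose collection times are uncertain. PSMB8 was called in the ileum (1.18 ± 0.32, peak ZT9.68), omental fat (1.06 ± 0.25, ZT6.30), stomach fundus (0.95 ± 0.24, ZT9.68) and paraventricular nuclei (0.89 ± 0.20, ZT0.933). Other members called in the paraventricular nuclei also peaked early there, such as PSMB10 at ZT2.31 and PSMB6 at ZT2.40. PSMB9 was called in the ileum and omental fat. With the axis as a covariate 5 pairs were called (0.186%, against 0.223% of all pairs), and with a linear trend 83 (3.09%, against 2.91%).

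Of the ubiquitin and proteasome list 14 of 23 genes had a 24 h profile in the periphery and 9 of 22 in brain, beside 61.3% and 31.7% of all genes. They held UBA1, the ubiquitin activating enzyme (0.43 ± 0.06, ZT6.47), and the ubiquitin receptor ADRM1 (0.89 ± 0.13, ZT6.13), both among those with the smallest p in the periphery. ADRM1 (0.50), UBA1 (0.23) and ZFAND5 (0.20, ZT18.9) led in brain. Of the antigen presentation list 14 of 17 were called in the periphery, led by PDIA3 (0.28, ZT18.1), TAPBP (0.72, ZT6.14) and TAPBPL (0.62, ZT6.81), and 6 of 15 in brain, led by CALR (0.31), TAPBP (0.48) and TAPBPL (0.36). Profiles differed between brain and periphery for 2 of 22 genes of the former list, ADRM1 among them (limma adjusted p = 0.048). The antigen presentation list had 0 of 15, of which 8 had an unadjusted p under 0.05. Among all genes the share was 5.67%, so these small counts do not set the 2 lists apart.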

How the data were processed

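FPKM values of 767 libraries were deposited by the authors. Per the submitters' processing notes, STAR, featureCounts and DESeq2 were used, while the build and their versions were not given in the sources used here. Whole reads were recovered for all 26546 rows above 0 (within 0.01 reads). The deposited values of all libraries already shared a median-of-ratios scale. Libraries were averaged per class and animal as log2(FPKM + 0.5), for genes with a mean of at least 1 FPKM, and tested with limma 3.58.1 in R 4.3.3, adjusting by Benjamini-Hochberg over all genes, called under 0.05. Same-numbered libraries come from the same animal by the labels, which pairs the classes, so levels were tested as within-animal differences. For 24 h profiles a cosine was fitted over the animals. In the class fits a gene needed a mean of at least 1 FPKM in at least 0.5 of the tissues of the class. The difference of profiles was tested for genes that met this in both classes. Deviations from tissue means were used in these class fits. A library was said to hold or lack markers where a list's median differed 20-fold from its tissue's and either reached 10 FPKM. It was said to resemble another animal where, with the library axis removed, 200 genes correlated better with that animal by over 0.2. Alternatives changed the scaling, pseudocount, filter, pairing, covariates and libraries.

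Values per tissue are given for catalytic subunits, PSMA8, PSMB11 and activators, and the highest and lowest 2 tissues for others. Of the other lists, the 3 called genes with the smallest p are named, except for a gene not reported here. The members and lists were chosen with earlier results of these data known. A suffix of unknown meaning, approx, stood in 8 column names. In simulated data 200 genes were changed, with noise drawn independently for each gene. The periphery fit on 11837 genes called 23.0%, 86.5% and 96.0% of changes of 0.25, 0.5 and 0.8. The level test of periphery against brain on 15304 genes called 17.5%, 94.0% and 100% of differences of 0.2, 0.5 and 1. Genes of the real libraries share the library axis and many more were called, so these rates need not hold there.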

Additional observations from a re-analysis of the deposited data

Results flagged for a closer look

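PSMB8 and PSMB9 were picked out because the test of the difference itself found their 24 h profiles to differ between brain and periphery. They were 2 of 42 members, against 5.67% of all genes. For PSMB8 the difference had an amplitude of 0.49 on the log2 scale (limma adjusted p = 0.0070), and for PSMB9 0.34 (limma adjusted p = 0.034). Both calls were lost without pairing by animal and without the libraries that resembled another animal. Fitted peripheral peaks were at ZT9.65 for PSMB8 and ZT7.41 for PSMB9, and neither profile passed in brain. Each collection time was 1 animal, so an effect of time and of animal cannot be told apart.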

How the results depend on the processing

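The 6 ratios of immune to constitutive subunits kept direction and call under every alternative run for them. The filter cannot change a ratio, and a scaling factor per library can do so only through the added 0.5. Those settings are therefore no check of the ratios, whereas changes of pseudocount, libraries and replicates are. Covariates and pairing were not varied for the ratios. Bringing libraries to the same FPKM sum, chosen after seeing the data, gave 35 members higher and 5 lower in periphery against brain, 40 and 1 in lymphoid against other peripheral tissues, and 20 and 12 in the testicles. The median difference of all genes then stood at 0.68, 0.60 and 0.78 in the same order. That scaling reversed PSMB6 (0.19) and PSMB7 (0.50) between periphery and brain and PSMB7 (0.27) in lymphoid tissues. PSMB6 in lymphoid tissues (0.11) and PSMB7 in the testicles (0.15) also changed sign but were no longer called. The same scaling left 10 members with a 24 h profile in brain, 1 whose profiles differed, and 129 pairs of member and tissue.

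Without the replicate block, which pairs tissues by animal, 11 members were lower in lymphoid tissues and 0 profiles differed. With the library axis 0 members were called in brain, 0 in the periphery, 1 for the difference and 5 pairs, and with a linear trend 0, 3, 1 and 83. The difference was called for 0 members with an F test without moderation and 1 without the libraries flagged by their markers. It was called for 0 without libraries that matched another animal, and 1 without the amygdala library of ZT8. With no filter 110 pairs were called. Leaving out each replicate in turn gave 7 (without ZT6) to 14 members in brain, 29 to 32 in the periphery and 1 to 3 for the difference, with 1 without ZT0, ZT4, ZT8, ZT16 or ZT20. It gave 9 in brain without ZT4 and 8 without ZT16 or ZT18. Levels gave 12 to 13 higher and 22 lower for periphery against brain, 10 to 14 and 14 to 19 in lymphoid tissues, and 7 to 9 and 28 to 30 in the testicles. The testicles without libraries that matched another animal gave no value, since all 12 did. Why these values moved was not tested. Depth limits PSMB11 and PSMA8 outside their tissues, where few reads support a value.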
